A study of Mus musculus with 8 samples.

Results

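The NRF2 antioxidant response genes described here are 10 genes chosen by symbol: Nfe2l2, Keap1, Hmox1, Nqo1, Gclc, Gclm, Txnrd1, Srxn1, Osgin1 and Gsr. They were chosen with earlier results of these data known, which limits how they can be set against all genes. All 10 were found among the 39017 gene identifiers of the count table, and all 10 were among the 18952 genes with enough counts to be tested. The cells were mouse embryonic fibroblasts (MEFs) from E13.5 embryos, sequenced as 8 poly(A)-selected libraries in 4 groups of 2 biological replicates. The groups were control total, control granule, knockout total and knockout granule. Total RNA came from unstressed cells, and granule-enriched RNA came from cells exposed to 500 µM sodium arsenite for 30 min, from which stress granules were enriched by centrifugation. Knockout cells lacked Mettl3, the enzyme that writes N6-methyladenosine (m6A) on mRNA. Cre recombinase was activated in them with 500 nM 4-hydroxytamoxifen for 48 h, loss of the protein and of the mark was checked after 7 days, and cells were taken the next day. The labels do not give the deleted exons, the Cre driver, the number of embryos or lines behind each group, or whether control cells received tamoxifen. Arsenite and granule enrichment were always applied together, so the contribution of each to a granule to total difference cannot be told apart.

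NRF2, encoded by Nfe2l2, is a transcription factor that KEAP1 holds in the cytoplasm and presents to the CUL3 ubiquitin ligase for degradation. Oxidants and electrophiles, arsenite among them, modify cysteines of KEAP1, and NRF2 then accumulates, pairs with small MAF proteins and binds antioxidant response elements (AREs) near its target genes. The targets serve haem breakdown (Hmox1), quinone reduction (Nqo1), glutathione synthesis (Gclc, Gclm), glutathione recycling (Gsr) and the thioredoxin and peroxiredoxin systems (Txnrd1, Srxn1), and Osgin1 encodes a growth inhibitor induced by oxidative stress.

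Promoter sequence was read for these genes because AREs are the feature NRF2 targets are known for. The RefSeq table on GRCm38.p6 holds windows from 250 bases before to 50 bases after a RefSeq start for 7 of the 10 genes (not Hmox1, Gclc or Gsr). The ARE core TGACNNNGC, searched on both strands, was found in 4 of the 7 (Gclm, Nfe2l2, Srxn1 and Txnrd1), and in 13.99% of the 27025 genes in the table. The motif TGACTCA, also on both strands, was found in 2 of the 7 (Osgin1 and Srxn1) and in 5.95% of genes. The stretches below are written 5′ to 3′ on the strand of the gene, the + strand in each case, with the motif letters in capitals. They are the promoters that hold a match upstream of the start and outside annotated exons. A motif that lies on the other strand appears as its reverse complement.
Srxn1, TGACTCA motif at -102 from the start, chr2:152105397-152105453: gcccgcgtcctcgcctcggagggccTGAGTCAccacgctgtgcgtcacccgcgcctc
Srxn1, TGACTCA motif at -45 from the start, chr2:152105454-152105510: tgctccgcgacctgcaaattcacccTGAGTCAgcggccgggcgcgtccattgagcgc
Osgin1, TGACTCA motif at -97 from the start, chr8:119437025-119437081: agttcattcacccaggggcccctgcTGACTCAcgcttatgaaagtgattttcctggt
Gclm, ARE core at -134 from the start, chr3:122245398-122245456: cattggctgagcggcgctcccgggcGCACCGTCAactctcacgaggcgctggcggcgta
Txnrd1, ARE core at -92 from the start, chr10:82859089-82859147: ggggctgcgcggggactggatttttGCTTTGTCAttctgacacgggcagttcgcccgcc
Positions are counted from the RefSeq start of the window, and Txnrd1 has 3 windows. For Txnrd1 and Osgin1 the start used lies inside the GENCODE span of the gene (chr10:82833951-82897712 and chr8:119434124-119446256), downstream of its first base. These matches describe letters in a short window and are not measured binding sites.

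Library totals ran from 67257220 to 123508539 counts, so that 3 counts corresponded to 0.0264 to 0.0441 CPM (counts per 1000000 of the scaled library), and raw counts of the 10 genes ran from 575 for Nqo1 to 71774 for Txnrd1. Values below are CPM scaled by the trimmed mean of M values (TMM), and a gene is called when its adjusted p over all genes tested was under 0.05 in the edgeR quasi-likelihood test. Mettl3 itself had 25.4 and 24.9 CPM in control total, 15.7 and 15.4 in control granule, 6.004 and 7.35 in knockout total and 5.56 and 6.38 in knockout granule. Its counts may include some reads of Tox4, since exons of that gene overlap 18.38% of the exonic bases of Mettl3. Mettl3 was lower in knockout cells in total RNA (log2 fold change -1.91, adjusted p = 0.0345) and in granule RNA (-1.38, adjusted p = 0.0208). Leaving out any 1 of the 6 libraries outside knockout total ended the first call (-1.91 to -1.85, adjusted p up to 0.429), and leaving out any 1 granule library the second (-1.49 to -1.34, adjusted p up to 0.195). All 10 fibroblast markers were detected, with a summed level of 3485 to 7584 CPM. Markers of other cell types were low apart from epithelial keratins, whose list summed to 210 to 346 CPM in control total, 683 to 719 in control granule, 49.97 to 90.5 in knockout total and 536 to 672 in knockout granule. The knockout total replicates stood apart from each other: 40.1% of 10261 well-counted genes differed over 2-fold between them, against 0.127% to 2.33% in the other groups. Their difference followed the GC content of genes (replicate 2 minus replicate 1, Spearman's rho 0.734 across genes). These values compare the replicates with each other and cannot show which of them is atypical. The control total replicates, whose differences were smaller, also followed GC content (rho -0.764). Mitochondrial genes took 7.60% of the counts of knockout total replicate 1 and 6.16% and 8.81% in the knockout granule libraries, against 0.59% to 0.881% in the other 5. Knockout total replicate 2, at 0.807%, was thus near the control libraries, and replicate 1 near the knockout granule libraries. The part of the keratin, GC and mitochondrial differences in the results below was not tested. Fits below that leave out a knockout total library keep 1 library in that group. All groups share 1 estimate of the spread, so these fits also change the adjusted p of comparisons that do not use that group. In bulk RNA, fewer cells expressing a gene and less of its RNA per cell cannot be told apart.

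Per kilobase of exon, Hmox1 was the most abundant of the 10 genes in control total RNA, at 181.5 ± 19.1 CPM per kb (SD, n = 2). Txnrd1 followed at 70.4 and Gsr at 34.0. Keap1 (25.03), Nfe2l2 (22.04) and Srxn1 (20.1) came next, and neighbours among these 3 overlapped between libraries. Gclc (8.26), Osgin1 (7.27), Nqo1 (5.74) and Gclm (5.44) were lowest, again with neighbours that overlapped. Gclm thus had the lowest mean per kb of exon in unstressed control cells, with libraries (5.57 and 5.30) that overlapped those of Nqo1 (6.31 and 5.17). In control granule RNA Gclm stood at 18.1 CPM per kb, above Gclc, Osgin1 and Nqo1.

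**Figure D1:**
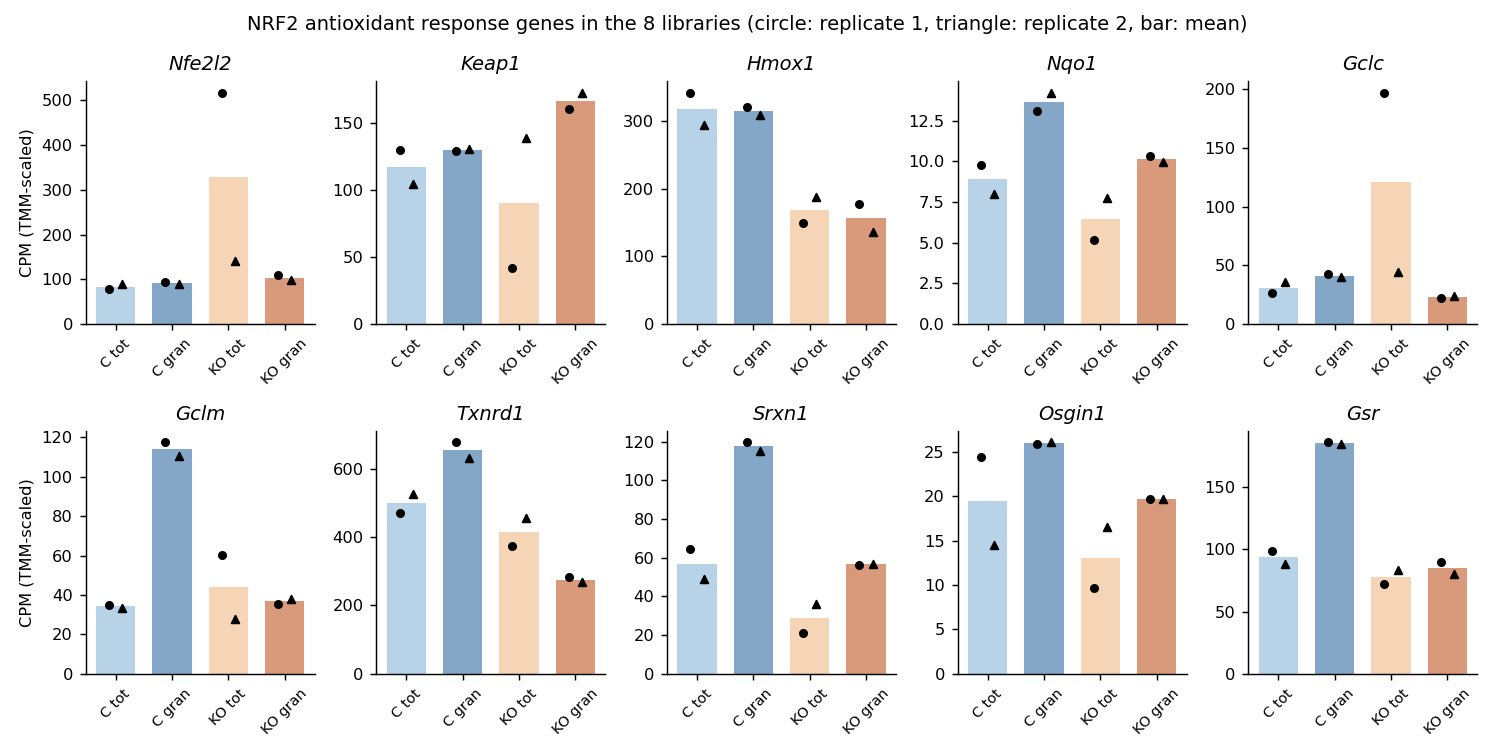
Level of each of the 10 genes in every library, in TMM-scaled CPM on a linear axis that starts at 0. Bars are group means, circles replicate 1 and triangles replicate 2 (C, control; KO, knockout; tot, total RNA; gran, granule-enriched RNA). Hmox1 is lower in both knockout groups, Srxn1 is higher in granule RNA of both genotypes, Gclm and Gsr are high in control granule RNA, and Nfe2l2 and Gclc have 1 high point, knockout total replicate 1.

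Averaged over both fractions, 4 of the 10 genes were called lower in knockout cells (Hmox1, Txnrd1, Srxn1 and Gsr) and none was called higher. Of all genes tested, 7.69% were called and 2.79% were called lower. Nfe2l2 was 1.07 higher on the log2 scale and not called. For Txnrd1 and Gsr the difference was -1.25 and -1.12 in granule RNA, against -0.26 and -0.27 in total RNA. The median log2 fold change of the 10 was -0.56, against 0.06 over all genes. Averaged over both genotypes, 2 of the 10 were called higher in granule than in total RNA (Srxn1 and Gsr) and none was called lower. Of all genes, 22.0% were called and 11.8% were called higher. The median of the 10 was 0.51, against -0.004 over all genes. Srxn1 and Gsr were the only ones of the 10 called on both axes. For Gsr both averages came with a high level in control granule RNA: granule minus total was 0.98 in control and 0.13 in knockout cells. For Srxn1 it was 1.05 and 0.97.

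**Figure D2:**
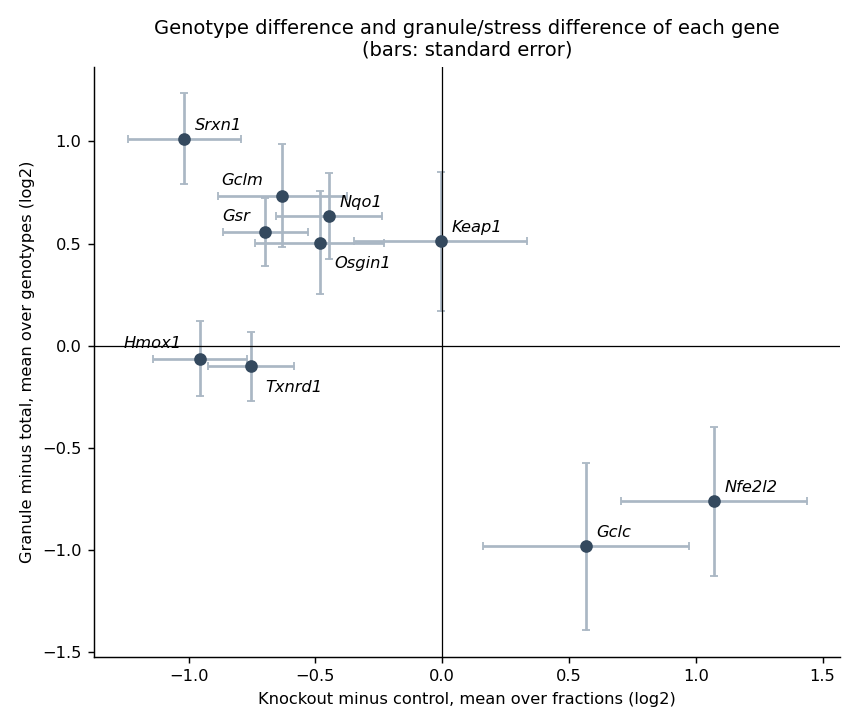
Knockout minus control, averaged over fractions (horizontal), against granule minus total, averaged over genotypes (vertical), both as fitted log2 fold changes with standard errors as bars, for each of the 10 genes. Hmox1 and Txnrd1 lie to the left at a vertical value near 0, Srxn1 lies to the left and up, Keap1 lies at 0 on the genotype axis, and Nfe2l2 and Gclc lie at the lower right.

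Hmox1 encodes haem oxygenase 1, which degrades haem to biliverdin, iron and carbon monoxide. It had 341.5 and 294.2 CPM in control total and 319.7 and 308.3 in control granule, against 149.9 and 188.2 in knockout total and 177.1 and 136.6 in knockout granule. All 4 knockout libraries were below all 4 control libraries, a pattern also seen for Txnrd1 and shared with 5.31% of all genes, and within each genotype the granule and total libraries overlapped. Averaged over fractions, Hmox1 in knockout cells was 0.515 times its control level (log2 fold change -0.96, SE 0.185, adjusted p = 0.0232). In the edgeR test as described above, the genotype difference had a similar size in each fraction. It was -0.91 in total RNA (95% interval -1.51 to -0.31, adjusted p = 0.143) and -1.002 in granule RNA (-1.60 to -0.40, adjusted p = 0.0506), and neither was called. With the trend on GC content removed, the sizes were less alike: -0.60 and not called in total RNA, and -1.10 and called in granule RNA. Granule minus total was -0.02 for control (-0.61 to 0.58) and -0.11 for knockout cells (-0.70 to 0.49). The difference between these was -0.09 (-0.93 to 0.75), an interval that still holds changes of over 1.5-fold either way. With the GC trend removed that difference was -0.49 and not called. The averaged genotype difference was -0.88 without knockout total replicate 1 (adjusted p = 0.000602). In granule RNA alone, a comparison that uses no knockout total library, the difference was -1.01 without replicate 1 and -1.07 without replicate 2 of that group. In total RNA alone it was -0.75 without replicate 1 and -0.98 without replicate 2 of that group. Leaving out any 1 of the 6 libraries outside knockout total left the averaged difference between -1.05 and -0.87 but not called (adjusted p 0.0734 to 0.154).

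Srxn1, sulfiredoxin, which restores over-oxidised peroxiredoxins, differed on both axes. Its levels were 64.3 and 49.2 CPM in control total, 119.7 and 115.4 in control granule, 21.2 and 36.4 in knockout total, and 56.2 and 57.0 in knockout granule. Granule libraries were above total libraries in both genotypes, and knockout granule RNA lay at the level of control total RNA. On the log2 scale granule minus total was 1.05 for control cells against 0.97 for knockout cells, and the difference of knockout from control was -0.98 in total and -1.05 in granule RNA. Averaged, the granule difference was 1.01 (SE 0.223, adjusted p = 0.0165) and the genotype difference -1.02 (SE 0.223, adjusted p = 0.0344). None of the 4 single differences was called (adjusted p 0.0679 to 0.149), and the interaction, the difference between genotypes in the granule to total ratio, was -0.08 (95% interval -1.09 to 0.94). With the GC trend removed, the genotype difference was -0.70 in total and -1.15 in granule RNA, and the interaction was -0.46 and not called. The averaged values were 0.84 and -0.85 without knockout total replicate 1, both called, and the interaction was then -0.43 (adjusted p = 0.281). Without knockout total replicate 1 and then without replicate 2, granule minus total was 1.06 and 1.09 in control and 0.632 and 1.285 in knockout cells. The genotype difference in granule RNA was then -1.07 and -1.12. In total RNA it was -0.64 without replicate 1 and -1.31 without replicate 2, and so depended on the library kept. Leaving out any 1 of the 6 libraries outside knockout total ended both calls, at 0.91 to 1.11 (adjusted p 0.0511 to 0.0777) for the granule difference and at -1.11 to -0.92 (adjusted p 0.0816 to 0.175) for the genotype difference.

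Nqo1 and Osgin1, like Srxn1, were on average highest in control granule and lowest in knockout total RNA, and the edgeR test as described above called neither in any comparison with all 8 libraries. On the same 8 libraries DESeq2 called Nqo1 higher in granule RNA averaged over genotypes, and edgeR with the GC trend removed called Osgin1 higher in granule RNA of control cells and lower in knockout granule RNA. Nqo1, a reductase that carries quinones past their radical form, had 9.79 and 8.03 CPM in control total, 13.1 and 14.2 in control granule, 5.17 and 7.75 in knockout total, and 10.3 and 9.94 in knockout granule. Its averaged granule difference was 0.64 (95% interval 0.15 to 1.12, adjusted p = 0.0634) and its averaged genotype difference -0.45 (-0.93 to 0.03). Osgin1 had 24.4 and 14.5 CPM in control total, 25.9 and 26.1 in control granule, 9.63 and 16.6 in knockout total, and 19.7 in each knockout granule library. Its averaged granule difference was 0.51 (-0.08 to 1.09) and its averaged genotype difference -0.48 (-1.07 to 0.10). Across the 8 libraries, log2 CPM of Nqo1 correlated with that of Srxn1 at a Pearson r of 0.977 and with that of Osgin1 at 0.951, a description of 8 points that share groups and depth. Nqo1 was called, once knockout total replicate 1 was left out, in control granule against total RNA (0.63), which does not use that library, and in the average over genotypes (0.50). Both were also calls without knockout total replicate 2, whose removal also led to calls for Osgin1 in the average over genotypes (0.69, adjusted p = 0.00801) and for Nqo1 (-0.59, adjusted p = 0.00624) and Osgin1 (-0.68, adjusted p = 0.00815) between genotypes over both fractions.

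Gclm, Gsr and Txnrd1 were highest in control granule RNA and did not keep that level in knockout granule RNA. Gclm encodes the modifier subunit of glutamate-cysteine ligase, the enzyme that sets the rate of glutathione synthesis. Gclm had 35.1 and 33.3 CPM in control total and 117.5 and 110.6 in control granule, against 60.5 and 28.1 in knockout total and 35.7 and 37.8 in knockout granule. Both control granule libraries were above every other library. In control cells Gclm was 3.34-fold higher in granule RNA (log2 fold change 1.74, SE 0.367, adjusted p = 0.0285), and in knockout cells the difference was -0.27 (95% interval -1.09 to 0.56). In granule RNA, knockout cells had 0.322 times the control level (-1.63, SE 0.366, adjusted p = 0.0344), whereas the genotype difference in total RNA was 0.37 (-0.45 to 1.20). With the trend of fold changes on GC content removed, the granule difference in control cells was 0.93 and still called (adjusted p = 0.0247). The interaction was -2.01 (-3.18 to -0.83, adjusted p = 0.0962), and -1.07 with the GC trend removed (adjusted p = 0.0696), and so was not called with all 8 libraries. Without knockout total replicate 1 it was -1.36 and was called (adjusted p = 0.00342), and the knockout granule to total difference changed sign to 0.38. Without knockout total replicate 2 the interaction was -2.63, also called (adjusted p = 1.00e-05). Both Gclm calls were lost on leaving out any 1 of the 6 libraries outside knockout total, while the values stayed at 1.74 to 1.82 in control cells (adjusted p 0.0767 to 0.199) and at -1.74 to -1.64 in granule RNA (adjusted p 0.0704 to 0.243).

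Gsr, glutathione reductase, returns oxidised glutathione to its reduced form. It had 98.9 and 88.5 CPM in control total, 185.8 and 184.3 in control granule, 72.0 and 83.1 in knockout total, and 89.5 and 80.5 in knockout granule. The control granule libraries were again above all others, and the knockout fractions overlapped. Gsr was 1.97-fold higher in granule than in total RNA of control cells (log2 fold change 0.98, SE 0.238, adjusted p = 0.0407) and 0.13 higher on the log2 scale in knockout cells (95% interval -0.41 to 0.67). In granule RNA it fell to 0.459 times the control level in knockout cells (-1.12, SE 0.239, adjusted p = 0.0292), while in total RNA the genotype difference was -0.27 (95% interval -0.82 to 0.27, adjusted p = 0.476). The interaction was -0.85 (adjusted p = 0.165) with all libraries and -0.96 (adjusted p = 0.0171) without knockout total replicate 1. Averaged, the genotype difference was -0.70 (adjusted p = 0.0448) and the granule difference 0.56 (adjusted p = 0.0475). In edgeR the averaged granule difference was not called with median-of-ratios scaling (adjusted p = 0.0542), without the low-count filter (0.1325) or with the replicate number as a block (0.0948). The block also ended the call on the averaged genotype difference (adjusted p = 0.101). Both averages were called by DESeq2 and with the GC trend removed. Leaving out any 1 of the 6 libraries outside knockout total ended each of these 4 calls (adjusted p 0.0528 to 0.272), and the values stayed within 0.95 to 1.07, -1.25 to -1.05, -0.74 to -0.66 and 0.50 to 0.60, in the order given.

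Txnrd1 encodes the cytosolic thioredoxin reductase. It had 471.5 and 526.1 CPM in control total, 677.3 and 630.7 in control granule, 374.9 and 456.7 in knockout total, and 281.9 and 269.4 in knockout granule. Granule libraries were thus the highest in control cells and the lowest in knockout cells, and all 4 knockout libraries were below all 4 control libraries. In granule RNA, knockout cells had 0.421 times the control level (log2 fold change -1.25, SE 0.244, adjusted p = 0.0229). In total RNA the genotype difference was -0.26 (95% interval -0.82 to 0.29), and the average over fractions was -0.75 (SE 0.171, adjusted p = 0.0372). Granule against total RNA was 0.39 (-0.16 to 0.94) in control and -0.59 (-1.15 to -0.04, adjusted p = 0.124) in knockout cells, with an interaction of -0.98 (-1.77 to -0.20, adjusted p = 0.136). Without knockout total replicate 1 the interaction was called (-1.13, adjusted p = 0.00807), as was the granule difference in knockout cells (-0.73, adjusted p = 0.00850). The call in granule RNA was lost without any 1 of the granule libraries or control total replicate 1 (-1.36 to -1.22, adjusted p 0.0509 to 0.228), and the averaged call without any 1 of the 6 libraries outside knockout total (-0.80 to -0.71, adjusted p 0.118 to 0.2). The mitochondrial share, 0.59% to 0.678% in control granule and 6.16% to 8.81% in knockout granule libraries, moved with these granule differences in Gclm, Gsr and Txnrd1, and its part in them was not tested.

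The edgeR test as described above called neither the factor nor its sensor in any comparison with all 8 libraries. DESeq2 called Nfe2l2 in knockout granule against total RNA (lower) and between genotypes in total RNA and over both fractions (higher). Without the low-count filter, edgeR made the same Nfe2l2 calls, and called it lower in the interaction and in granule RNA averaged over genotypes. With the GC trend removed, edgeR called Nfe2l2 lower in knockout granule against total RNA and Keap1 higher in granule RNA averaged over genotypes. Nfe2l2 had 78.2 and 89.2 CPM in control total, 94.7 and 89.9 in control granule, 517.3 and 140.2 in knockout total, and 109.6 and 97.6 in knockout granule. All 4 knockout libraries were above all 4 control libraries, which held for 4.39% of genes, but 1 library, knockout total replicate 1, was 3.69 times as high as its replicate. The genotype difference in total RNA was 1.97 with all libraries (95% interval 0.75 to 3.20, adjusted p = 0.136) and 0.75 without that library, where it was called (adjusted p = 0.0383). In granule RNA it was 0.17 (-1.01 to 1.35). Keap1 had 130.1 and 104.8 CPM in control total, 128.7 and 130.3 in control granule, 42.0 and 139.1 in knockout total, and 160.5 and 172.6 in knockout granule. Its genotype difference averaged over fractions was -0.01 (-0.79 to 0.78). In total RNA it was -0.37 with all libraries, 0.25 without knockout total replicate 1, and -1.38 and called without replicate 2 (adjusted p = 0.000199). Reads from Keap1 may include some of Gm16754, which covers 10.87% of its exons, since no source used here says whether reads were counted by strand.

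Gclc, the catalytic subunit that pairs with the Gclm product, correlated with Gclm at a Pearson r of 0.304 across the 8 libraries (log2 CPM). It had 26.6 and 35.6 CPM in control total, 42.7 and 40.1 in control granule, 197.3 and 44.8 in knockout total, and 22.6 and 24.0 in knockout granule. The knockout granule libraries were the lowest of all 8, and knockout total replicate 1 was the highest. Granule RNA was lower than total RNA in knockout cells (log2 fold change -2.38, SE 0.602, adjusted p = 0.0334), and without knockout total replicate 1 the difference was -0.95 and still called (adjusted p = 0.00421). Leaving out any 1 of the 6 libraries outside knockout total ended the call at -2.49 to -2.38 (adjusted p 0.0625 to 0.203). In control cells granule RNA was 0.41 above total RNA (95% interval -0.91 to 1.74). The interaction was -2.79 (adjusted p = 0.111) with all libraries and -1.37 without knockout total replicate 1. Without that library the interaction of Gclm was of the same size, at -1.36. In granule RNA the genotype difference was -0.83 (-2.16 to 0.50), and it was -0.84 without knockout total replicate 1, which this comparison does not use.

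**Figure D3:**
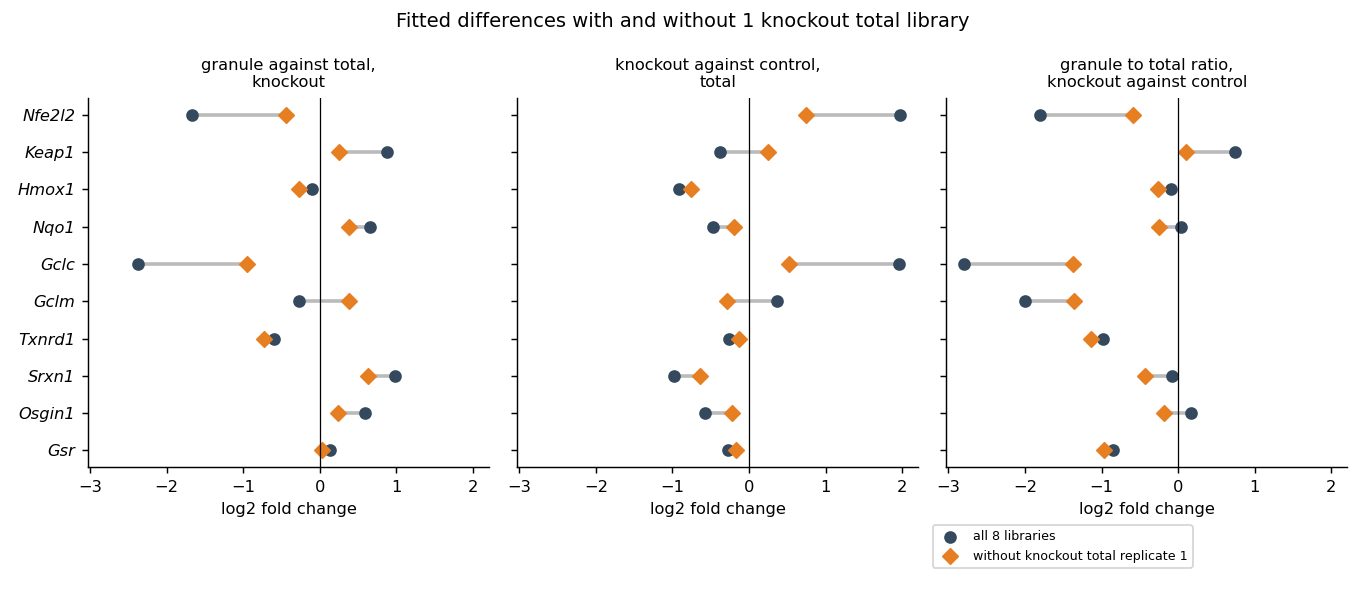
Fitted log2 fold changes of the 10 genes with all 8 libraries (dark circles) and without knockout total replicate 1 (orange diamonds), in the 3 comparisons that use the knockout total group. Nfe2l2 and Gclc move the most, Gclm and Keap1 change sign in total RNA, and Hmox1, Gsr and Txnrd1 move little.

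With all 8 libraries the edgeR test made 6 calls among the 10 genes in the 4 single comparisons, 3 between granule and total RNA and 3 between genotypes in granule RNA. In control cells 2 of the 10 genes were called higher in granule than in total RNA (Gclm and Gsr), where 10.1% of all genes were called. There, 8 of the 10 had both granule libraries above both total libraries and none the reverse, against 35.2% of all genes, and the median log2 fold change was 0.42 against -0.06. In knockout cells 1 of 10 was called, lower (Gclc), against 17.6% of all genes, and the median was 0.01 against 0.04. Between genotypes in granule RNA, 3 of 10 were called, all lower in knockout cells (Gclm, Txnrd1 and Gsr), against 9.45% of all genes called and 3.66% called lower. The knockout libraries were below the control libraries for 8 of 10 genes, against 36.6% of all genes, and above for 2 (40.4%), with a median of -0.92 against 0.08. In total RNA, edgeR called 0 of 10 between genotypes, against 0.412% of all genes. At an unadjusted p under 0.05 it gave 4 of 10 (24.8% of all genes), and DESeq2 called 4 (13.2%): Nfe2l2 and Gclc higher, Hmox1 and Srxn1 lower. The interaction was called by edgeR for 0 of 10 (0.517% of all genes), with 5 of 10 at an unadjusted p under 0.05 (25.8%), and by DESeq2 for 3, Gclc, Gclm and Txnrd1 (14.5%). With knockout total replicate 1 left out, edgeR called the interaction for 4 (Gclc, Gclm, Txnrd1 and Gsr), against 18.6% of all genes. The same fit called 4 of the 10 in control granule against total RNA (Nqo1, Gclm, Srxn1 and Gsr, all higher, against 40.6% of all genes) and 3 in knockout cells (Srxn1 higher, Gclc and Txnrd1 lower, against 34.0%). It called 1 between genotypes in total RNA (Nfe2l2, higher, against 5.52%) and 6 in granule RNA (Hmox1, Gclc, Gclm, Txnrd1, Srxn1 and Gsr, all lower, against 39.0%). Averaged, it called 6 between genotypes (Nfe2l2 higher, and Hmox1, Gclm, Txnrd1, Srxn1 and Gsr lower, against 25.5%) and 4 between granule and total RNA (Nqo1, Gclm, Srxn1 and Gsr, all higher, against 46.2%). Leaving out knockout total replicate 2 instead left replicate 1 alone to stand for its group. Calls then rose in every comparison, among the 10 genes and over all genes alike. In that fit the genotype difference in total RNA was 2.74 for Nfe2l2, 2.77 for Gclc and 0.93 for Gclm. These comparisons share libraries pair by pair, so their counts are not separate evidence.

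**Figure D4:**
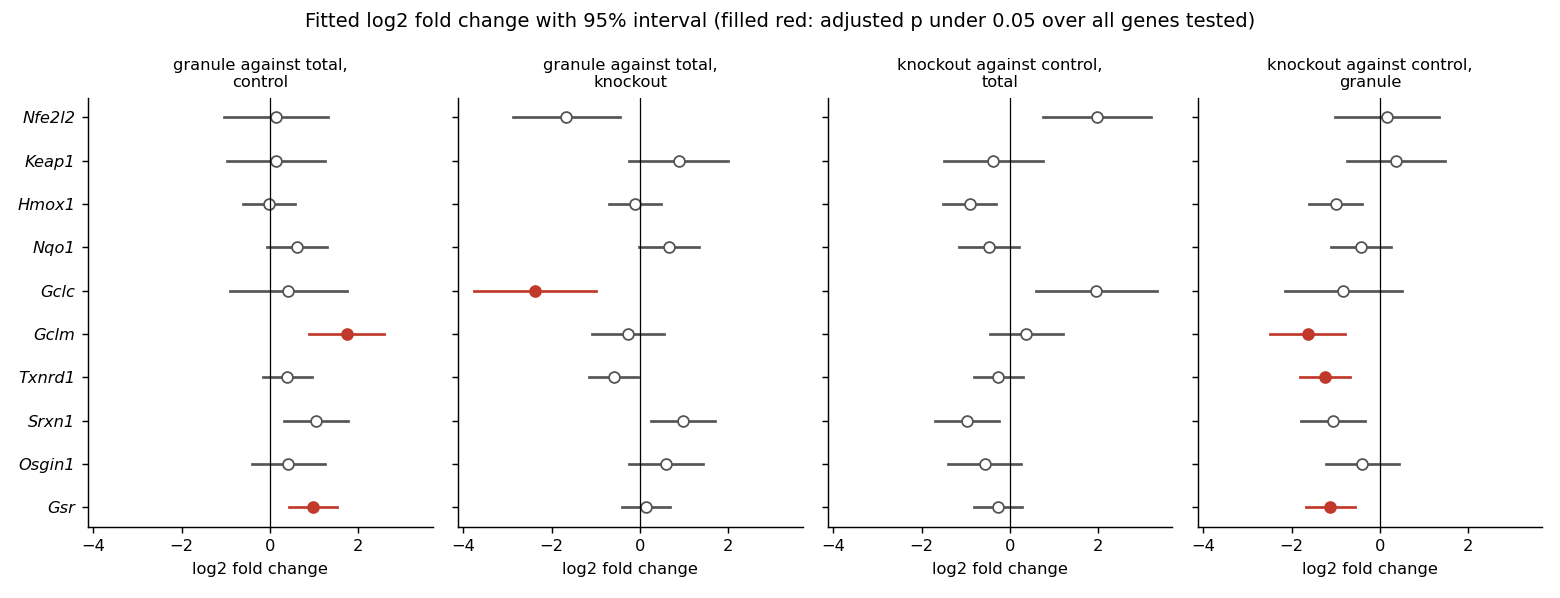
Fitted log2 fold change (points) with its 95% interval (lines) for the 10 genes in the 4 single comparisons, and filled red points mark an adjusted p under 0.05 over all genes tested. In granule RNA 8 of the 10 points lie below 0 between genotypes, and the intervals of Nfe2l2 and Gclc are the widest.

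Genes that act around NRF2 moved in both directions. Of 15 partners and regulators, 2 were called higher and 1 lower in granule against total RNA of control cells, where 10.1% of all genes were called (median 0.44 against -0.06 over all genes). Crebbp, a coactivator that acetylates NRF2, was at 50.7 and 66.8 CPM in control total and 184.6 and 170.8 in control granule (log2 fold change 1.60, adjusted p = 0.0350), and was also higher in granule RNA of knockout cells (1.55, adjusted p = 0.0260, and 1.03 without knockout total replicate 2). Bach1, a repressor that competes for AREs and holds Hmox1 down, was at 17.8 and 34.8 CPM in control total and 78.6 and 70.3 in control granule (1.501, adjusted p = 0.0424). Sqstm1, p62, which draws KEAP1 into autophagy and is itself a target, fell from 3402 and 3079 CPM to 1034 and 1065 (-1.63, adjusted p = 0.0233); its exons overlap those of a neighbouring gene. Averaged over genotypes, Crebbp (1.57), Bach1 (0.86) and Sqstm1 (-1.33) were again called. Between genotypes no partner was called in total RNA (6 of 15 at an unadjusted p under 0.05 by edgeR, against 24.8% of all genes), and in granule RNA only Fbxw11, a ligase adaptor for NRF2, was lower (-1.13, adjusted p = 0.0294). It was also lower in granule than in total RNA of knockout cells (-0.95, adjusted p = 0.0327).

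Of 29 other NRF2 targets tested, 1 was called higher and 4 lower in granule RNA of control cells (10.1% of all genes called, median -0.33 against -0.06). In that of knockout cells, 3 were called higher and 6 lower (17.6% called, median 0.02 against 0.04). In control cells Ugdh, which makes UDP-glucuronate, went from 87.4 and 107.2 to 357.4 and 336.1 CPM (1.83, adjusted p = 0.0111), while Cbr3 (-2.03) and Gstm2 (-1.13) were lower. In knockout cells Slc7a11, the cystine importer that supplies glutathione synthesis, was lower in granule RNA (-2.98, adjusted p = 0.0174), with 119.0 and 36.8 CPM in total and 10.3 and 9.41 in granule libraries. It was also lower in control cells, though not called, at 18.8 and 44.4 CPM in total and 6.64 and 6.91 in granule libraries. Without knockout total replicate 1 the difference in knockout cells was -1.91. In knockout cells the exporter Abcc4 was also lower (-2.68, and -2.00 without that library), as was Prdx6 (-1.17), while Gsta4 (2.31), Blvrb (1.61, and 1.06 without that library) and Gstm1 (1.24) were higher. Between genotypes in granule RNA, 3 of the 29 were called higher and 2 lower (9.45% of all genes called, median -0.46 against 0.08). Ugdh (-1.25) and Ephx1, an epoxide hydrolase (-1.02), were lower in knockout cells, and Gsta4 (2.33) and Cbr3 (2.03) were higher. Averaged over fractions, Gsta4 rose (1.13, and 0.80 without knockout total replicate 1) and Ephx1 fell (-0.83). Gst genes belong to multigene families, so their counts are uncertain where reads fit several copies. No target outside the 10 genes was called between genotypes in total RNA (10 of 29 at an unadjusted p under 0.05 by edgeR, against 24.8% of all genes).

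Among 13 antioxidant enzymes that are not classical NRF2 targets, none was called in control granule against total RNA (2 at an unadjusted p under 0.05 by edgeR), where 10.1% of all genes were called and 30.0% had such a p. In granule RNA of knockout cells 3 of the 13 were called lower (17.6% of all genes called): Prdx3 (-1.60), Sod2 (-1.33) and Txn2 (-1.29). Prdx3, a mitochondrial peroxiredoxin, was at 105.6 and 56.8 CPM in knockout total and 26.4 and 27.4 in knockout granule, against 61.9 and 67.5 in control granule (genotype difference in granule RNA -1.27, adjusted p = 0.0496). Averaged over genotypes, Txn2 (-0.91) and Sod2 (-0.74, and -1.14 with the GC trend removed) were lower in granule RNA, with Slc7a11 (-2.60), Abcc4 (-1.55) and Prdx6 (-0.89) among the targets, and Gsta4 (1.10) and Ugdh (0.91) higher. The calls on these listed genes were lost without at least 2 libraries each, taken 1 at a time, except those of Crebbp, Sqstm1 and Slc7a11 averaged over genotypes. Libraries outside knockout total were the ones concerned, and adjusted p reached 0.316.

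**Figure D5:**
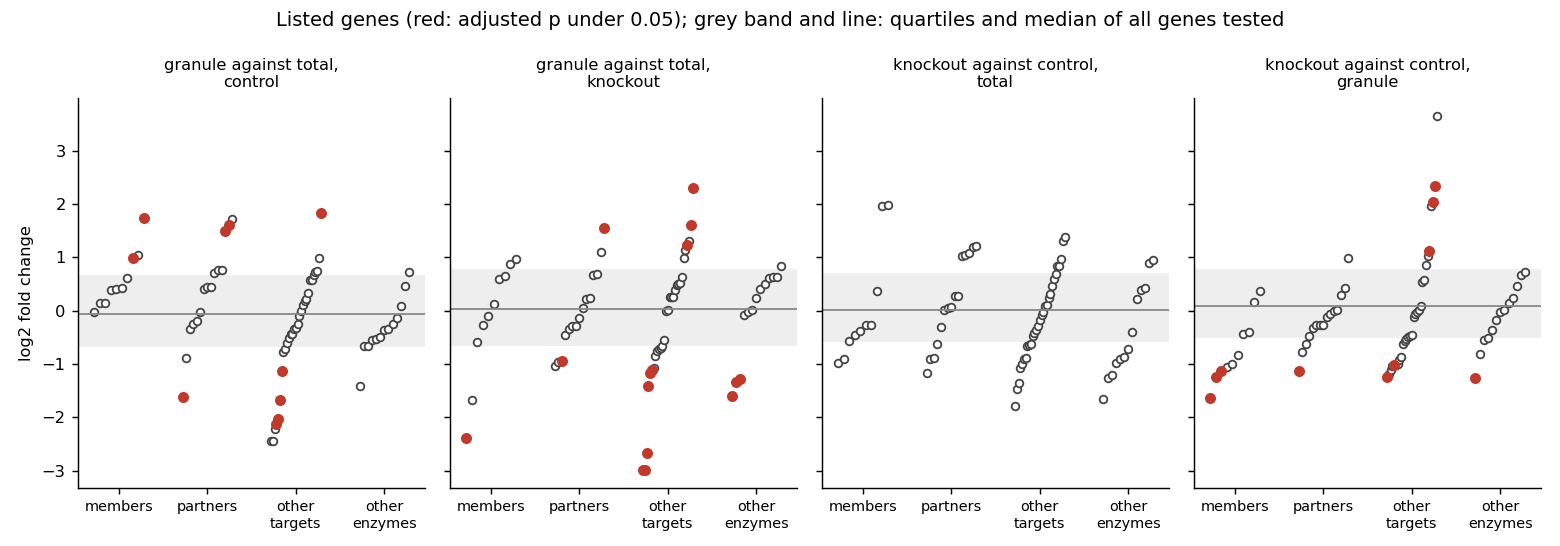
Fitted log2 fold change of every tested gene of the 4 lists in the 4 single comparisons, sorted within a list, with red for adjusted p under 0.05, and the grey band and line giving the quartiles and median of all genes tested. The 10 genes lie mostly above the line in control granule RNA and mostly below it between genotypes in granule RNA, while the other targets spread to both sides.

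The longest protein-coding transcripts of the 10 genes in GENCODE ran from 1553 to 5589 bases (median 2742, against 3028 for 15389 tested protein-coding genes) and GC content from 42.1% for Gclm to 60.0% for Osgin1 (median 49.9% against 50.5%). The pentamer GGACT, a common m6A context, occurred 0 times in Hmox1 and 2.42 times per kb in Nfe2l2 (median 0.857 against 1.06). On GRCm38, Hmox1 spans chr8:75093621-75100589, Srxn1 chr2:152105516-152111376, Gclm chr3:122245557-122270732, Gsr chr8:33652523-33698163 and Txnrd1 chr10:82833951-82897712. Across the 8 libraries, the genes whose log2 CPM followed Hmox1 most closely among 9974 genes were Sptan1 (Pearson r 0.991), Aif1l (0.990) and Pttg1ip (0.985), and those closest to Nqo1 were Shb (0.985), Cavin1 (0.983) and Fhl3 (0.980). Sptan1, for instance, had 615.2 to 704.8 CPM in the control and 309.5 to 423.5 in the knockout libraries.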

How the data were processed

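The authors deposited 1 table of raw gene counts by Ensembl identifier for the 8 libraries. The submitters' processing notes name STAR, DESeq2, GRCm38 and mm10, without roles. The counting program, annotation release and strand setting are not given in the sources used here. Of 39017 identifiers, 37693 matched GENCODE mouse release 21, and unmatched ones took 0.168% to 0.221% of counts.

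Deposited counts were scaled by TMM and fitted with 1 mean per group on all 8 libraries (edgeR 4.0.16, R 4.3.3, filterByExpr, quasi-likelihood F-test, 4 residual degrees of freedom). Benjamini-Hochberg adjustment ran over all 18952 genes tested. The 7 contrasts were both granule to total and both genotype differences, their 2 averages and the interaction. Alternatives were DESeq2 1.42.0, median-of-ratios scaling, no filter, a replicate block, removal of the GC trend, fits of only the compared groups, and fits leaving out each library in turn. The fits were tested on simulated data. Exon overlap used bedtools 2.31.1.

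The 10 genes and the lists were chosen with earlier results of these data known. From each list the text names called genes that averaged 5 CPM or more over the libraries, up to 3 per direction and comparison. For Hmox1 and Nqo1 it also names the 3 genes with the highest Pearson r (log2 CPM, prior count 2).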

Additional observations from a re-analysis of the deposited data

How the results depend on the processing

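Each group had 2 libraries and the fit 4 residual degrees of freedom. Among values of the 10 genes called with all 8 libraries, those that an alternative moved by over 1.5 times were Gclm in control granule to total (1.74, against 0.93 with the GC trend removed and 0.95 with the block as well) and Gclc in knockout granule to total (-2.38, against -0.95 without knockout total replicate 1), and both were still called. In the order control granule to total, knockout granule to total, genotype in total, genotype in granule, interaction, mean genotype and mean granule difference, the 10 genes had 2, 1, 0, 3, 0, 4 and 2 calls among 1906, 3343, 78, 1791, 98, 1457 and 4176 over all genes. The latter were 10.1%, 17.6%, 0.412%, 9.45%, 0.517%, 7.69% and 22.0% of the 18952 genes tested. Without the low-count filter, and so with more genes tested, the 10 genes had 3, 2, 2, 5, 3, 5 and 4 (all genes 4001, 5161, 3407, 3404, 3476, 3509 and 5673). With the GC trend removed they had 4, 3, 0, 6, 0, 5 and 3 (3821, 6163, 771, 4545, 1796, 3752 and 6618). DESeq2 gave 3, 3, 4, 5, 3, 5 and 5 (4072, 5091, 2506, 3381, 2746, 3228 and 5681). Median-of-ratios scaling changed 1 count of the 10, to 1 in the mean granule difference. A fit of only the groups compared gave 4, 0, 0 and 9 in the 4 single comparisons (7354, 0, 0 and 10359). Leaving out 1 library at a time gave 0 to 5, 0 to 8, 0 to 8, 0 to 7, 0 to 6, 0 to 10 and 0 to 8 calls (all genes 0 to 8118, 243 to 9707, 0 to 9627, 0 to 7834, 0 to 9348, 88 to 8886 and 1498 to 9225), with the most on leaving out a knockout total library and the fewest on leaving out a granule or control library. A group left with 1 library is assumed to vary like the others.

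The labels number replicates 1 and 2 in every group without saying what a number shares. Deviations of same-numbered libraries correlated at -0.602 to 0.190 across 10261 genes, so no pairing was used. With the replicate number as a block, the 10 genes had 0, 0, 0, 0, 0, 0 and 1 calls (581, 1898, 0, 670, 0, 577 and 2942 over all 18952 genes tested). With the GC trend removed as well as the block they had 4, 3, 0, 5, 0, 5 and 3 (3108, 5339, 360, 3762, 771, 2985 and 5920).

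Sign changes, none of them in a value called with all 8 libraries, were as follows. The cause was not tested. With the GC trend removed, and with the block as well, the values were -0.088 and -0.089 for Nfe2l2 and 0.265 and 0.265 for Hmox1 in control granule to total, -0.036 and -0.023 for Osgin1 in knockout granule to total, and, for genotype in total RNA, 0.088 and 0.060 for Keap1, -0.41 and -0.40 for Gclm and 0.161 and 0.165 for Osgin1. They were -0.88 and -0.89 for the Osgin1 interaction, 0.111 and 0.095 for the Keap1 mean genotype difference, and 0.018 and 0.014 for the Hmox1 mean granule difference. Without the filter, Hmox1 in control granule to total was 0.041 and the Nqo1 interaction -0.12. Keap1's mean genotype difference was 0.017 under both median-of-ratios scaling and DESeq2. Leaving out 1 library at a time, Hmox1 ran from -0.078 to 0.099 in control and from -0.375 to 0.067 in knockout granule to total, from -0.401 to 0.077 in the interaction and from -0.175 to 0.029 in the mean granule difference. Gclm ran from -0.85 to 0.38 and Gsr from -0.016 to 0.207 in knockout granule to total. For genotype in total RNA, Keap1 ran from -1.38 to 0.25 and Gclm from -0.28 to 0.93. The interactions of Nqo1, Srxn1 and Osgin1 ran from -0.25 to 0.18, -0.43 to 0.19 and -0.27 to 0.44, and the mean genotype differences of Keap1 and Gclc from -0.54 to 0.30 and -0.16 to 0.94.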
